A study of Mus musculus with 8 samples.

Results

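The genes described here carry glucose through glycolysis to pyruvate and lactate, with the neighbouring branches into the pentose phosphate path, glycogen and the pyruvate dehydrogenase complex. The set is a list of 40 mouse genes. A gene was read through the Affymetrix probe set whose only symbol is that gene, and through the probe set with the highest mean where there were several. By this rule 36 of the 40 genes were found. Aldoa, Eno1, G6pdx and Tkt had no such probe set and are not described. Of the 36 genes, 32 reached the intensity filter (a mean log2 intensity of 4.05 over all arrays) and were tested among 12668 probe sets, while Slc2a3, Pfkm, Fbp1 and Pdk4 lay below it.

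The arrays came from dendritic cells that were grown from the bone marrow of wild-type female C57BL/6 mice during 7 days at 21% oxygen under 20 ng/ml of GM-CSF and then selected for CD11c on magnetic beads. Hypoxia was common to every culture, controls included: 2 days at 2% oxygen, near 14 mmHg, again with 20 ng/ml of GM-CSF. For a further 6 hours they stayed in medium (4 arrays) or received 100 ng/ml of SCF, the stem cell factor that activates the receptor tyrosine kinase Kit (4 arrays). The work was done in 4 experiments named BC, D2, E and I, and each gave 1 medium and 1 SCF array from the same purified cells. No array of cells kept at 21% oxygen was analysed here, so the levels are those of hypoxic cells. The sources used here do not state the age of the mice or whether marrow was pooled.

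Cells with little oxygen rely on glycolysis for ATP. The hypoxia-inducible factor HIF-1 binds short sites with the core ACGTG or GCGTG near many genes of this path, among them Slc2a1, Hk2, Pgk1, Ldha and Pdk1, and raises their transcription. Lactate dehydrogenase A and the exporter Slc16a3 remove the end product, while pyruvate dehydrogenase kinases shut the entry of pyruvate into mitochondria. Activated dendritic cells are known to raise glycolysis soon after stimulation.

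No gene of the set passed the threshold for SCF against medium (0% of all probe sets tested did). Between experiments 3 of 32 tested genes differed, or 9.38%, against 3.35% of all probe sets tested. That count ranged from 0 to 16 over other settings of the analysis. Promoters are shown for the 5 tested genes with the smallest p between experiments among those that hold the HIF core. They come from RefSeq (GRCm38.p6) and are the 250 bases before the transcription start. Capitals mark ACGTG or GCGTG on either strand (CACGT or CACGC when read on the other strand).
Pfkl, chr10:78009808-78010057, minus strand: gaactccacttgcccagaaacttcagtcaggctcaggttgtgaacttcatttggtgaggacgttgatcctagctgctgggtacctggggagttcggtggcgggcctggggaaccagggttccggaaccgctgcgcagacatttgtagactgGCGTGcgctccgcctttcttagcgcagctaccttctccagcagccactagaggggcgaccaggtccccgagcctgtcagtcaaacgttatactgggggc
Pgam1, chr19:41911621-41911870, plus strand: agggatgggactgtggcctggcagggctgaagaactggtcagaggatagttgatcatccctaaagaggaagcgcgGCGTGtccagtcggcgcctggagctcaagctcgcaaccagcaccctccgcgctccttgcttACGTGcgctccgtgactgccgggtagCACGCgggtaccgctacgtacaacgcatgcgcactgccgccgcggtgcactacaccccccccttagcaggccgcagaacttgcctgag
Pdk1, chr2:71872974-71873223, plus strand: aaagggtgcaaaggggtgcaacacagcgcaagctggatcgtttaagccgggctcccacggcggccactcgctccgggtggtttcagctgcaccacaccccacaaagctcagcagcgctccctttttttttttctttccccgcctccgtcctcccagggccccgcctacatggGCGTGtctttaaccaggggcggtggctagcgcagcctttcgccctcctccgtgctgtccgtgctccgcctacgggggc
Hk2, chr6:82774455-82774704, minus strand: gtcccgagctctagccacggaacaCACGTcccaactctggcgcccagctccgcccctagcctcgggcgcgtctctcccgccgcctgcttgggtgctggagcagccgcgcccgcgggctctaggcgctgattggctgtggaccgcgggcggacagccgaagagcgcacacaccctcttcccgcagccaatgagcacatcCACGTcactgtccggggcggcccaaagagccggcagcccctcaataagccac
Slc16a1, chr3:104638414-104638663, plus strand: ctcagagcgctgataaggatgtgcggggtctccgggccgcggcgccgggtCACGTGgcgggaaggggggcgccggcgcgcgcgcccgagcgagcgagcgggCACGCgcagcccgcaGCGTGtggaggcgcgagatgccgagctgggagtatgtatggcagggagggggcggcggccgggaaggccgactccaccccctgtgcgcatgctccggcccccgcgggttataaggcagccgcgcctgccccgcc
The Pgam1 promoter holds 3 separate stretches in capitals, Slc16a1 also 3, Hk2 2, and Pfkl and Pdk1 1 each. A further annotated start of Pdk1 has a window without the core. In Slc16a1 one stretch is the palindrome CACGTG, where the motif on both strands overlaps and which is also the E-box bound by other factors. The core was looked for in every annotated start of each gene. Promoter windows were found for 34 of the 36 genes, and 29 of these genes (85.3%) hold the core in at least 1 window. The share was 41.5% of all 27025 genes in the promoter table and 60.2% of the 9052 genes whose probe sets reached the intensity filter. Among tested genes it was 27 of 31 (87.1%). Genes can have several windows. Counted by window, 73.9% of 46 in the set held the core, against 38.6% of all windows and 54.7% for genes above the filter. The median GC content of the windows was 60.2% in the set, 59.6% for genes above the filter and 52.4% for all windows. Among tested genes, Tpi1, Gys1, Gbe1 and Eno2 hold no match in their windows. Pdk3, Gapdh and Hk1 hold the core and hardly differed between experiments (adjusted p 0.861, 0.863 and 0.895 in limma's moderated F test). A match is a run of letters and was not tested as a binding site, and its part in the spread between experiments was not tested.

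**Figure D1:**
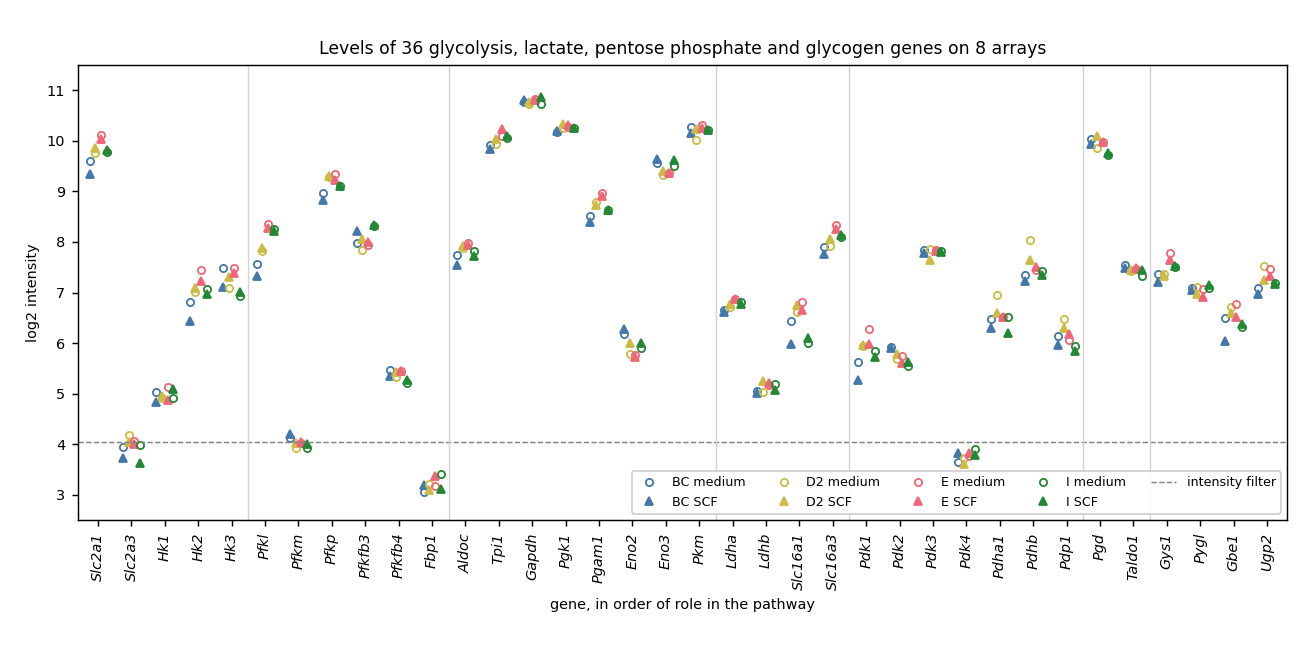
Log2 intensity of 36 genes on 8 arrays, with the gene on the horizontal axis in order of its role, open circles for medium, filled triangles for SCF and a colour per experiment. The dashed line is the intensity filter of 4.05, below which Slc2a3, Pfkm, Fbp1 and Pdk4 lie on average, and for most genes medium and SCF symbols overlap.

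Levels are log2 intensities as read by each gene's own probe set. Probe sets differ in how strongly they bind their target, so the level of one gene is not ranked against another. How each gene moved is described instead, as read by its probe set. Values for the experiments are always given in the order BC, D2, E and I. The SD of the 4 experiment means (each the mean of its medium and SCF array) is called the spread between experiments. Its median was 0.17 over the 32 tested genes and 0.09 over all probe sets tested. The spread also depends on the probe set: it was 0.20 and 0.07 for the Pgam1 probe sets and 0.24 and 0.12 for those of Slc2a1. Contrasts in spread between genes are therefore contrasts between probe sets. The size of the SCF minus medium difference had a median of 0.06 in the set and 0.05 over all probe sets tested. In whole cultures, fewer cells of a type and less RNA per cell cannot be told apart.

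None of the 32 tested genes passed an adjusted p of 0.05 for SCF against medium in limma with experiment as a block (background: 0% of 12668 probe sets), and the smallest adjusted p among them was 0.945. At an unadjusted p under 0.05, 4 genes were lower with SCF (background 2.26%), namely Pdha1, Pdk1, Gbe1 and Ugp2, and none was higher (background 1.95%). The fitted log2 differences ran from −0.21 for Pdha1 to 0.13 for Pfkfb3, and 20 genes lay below 0 and 12 above. Their median was −0.05, against 0.00077 over all probe sets tested. This median rested on experiment BC and was 0.01 without it. In BC 27 of 32 genes were lower with SCF (52.1% of all probe sets tested), in E 23 (49.8%), in I 14 (48.3%) and in D2 9 (48.7%). The 95% confidence interval of the difference lay within 1.5-fold in both directions for all 32 tested genes. With 4 arrays in a group, precision is limited by their number. Among markers of other cells, read in the same arrays, the macrophage gene Mertk differed by −0.20 (unadjusted p = 0.0269 in limma). The cycling cell gene Bub1 differed by −0.21 (unadjusted p = 0.0230) and was dim, at a mean of 4.09. Both were below 0 in 4 of 4 experiments and at an adjusted p of 0.945. Of the 7 macrophage markers tested, 6 lay below 0 and 1 above, with a median of −0.05. Of the 8 cycling cell markers tested, 5 lay below 0 and 3 above, with a median of −0.02. The summed linear intensity of 9 macrophage markers went from 1594 in medium to 1330 with SCF in BC, from 1454 to 1556 in D2, from 1899 to 1883 in E and from 1377 to 1315 in I. BC thus had the lowest SCF to medium ratio of these markers as well as the most glycolytic genes below 0, and D2 had the highest ratio and the fewest genes below 0. E and I did not keep this order. The macrophage sum changed by −0.83% in E, where 23 genes were below 0, and by −4.48% in I, where 14 were. The summed cycling cell markers went from 344 to 316 in BC, from 360 to 330 in D2, from 318 to 313 in E and from 309 to 331 in I. This sum leans on Cdk1, the brightest of them (mean 6.72), which differed by −0.31, −0.30, 0.04 and 0.25 in BC, D2, E and I. In D2, Mki67, Top2a, Ccna2, Birc5 and Plk1 were higher with SCF, while Ube2c, Bub1 and Aurkb were lower like Cdk1. The part of these markers in the SCF differences was not tested.

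**Figure D2:**
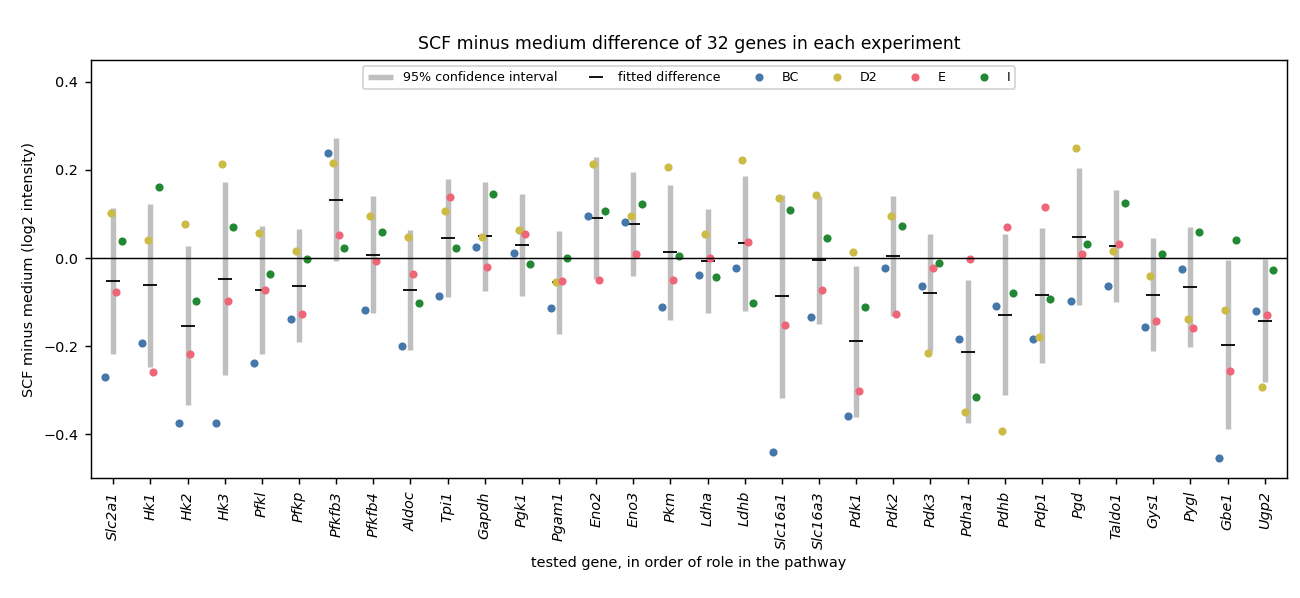
SCF minus medium difference in log2 intensity for 32 tested genes, with a point per experiment, the fitted difference as a dash and its 95% confidence interval as a grey bar. The points of BC are the lowest for many genes, such as Hk2 at −0.37 and Gbe1 at −0.45, and the interval excludes 0 for 4 genes.

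Between experiments, 3 of the 32 tested genes differed at an adjusted p of 0.05 in limma's moderated F test, or 9.38% against a background of 3.35% of all probe sets tested. These were Pfkl (adjusted p = 0.0149), Pgam1 (0.0452) and Pdk1 (0.0458). The test sets experiments against the residual spread within pairs, and both arrays of an experiment share 1 cell preparation. The count depended on the settings. It was 16 with a variance trend (background 12.1%), 15 of 25 with a stricter intensity filter (background 22.0%), 5 with equalized array medians (3.84%) and 4 when arrays were quantile-normalized again (3.17%). The count was 1 with no filter (0.766%) and 1 with the mean of each gene's probe sets (3.33%). Leaving out E gave 0 (background 0.300%). Leaving out BC gave 1, Slc16a1 (1.17%), and leaving out D2 or I gave 1, Pfkl (0.868% and 1.40%).

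The direction of these differences was shared by many of the genes. The mean of E was the highest of the 4 experiments in 18 of 32 genes (24.4% of all probe sets tested), and the mean of BC was the lowest in 17 (19.7%). Both BC arrays lay below the 6 other arrays in 11 genes (background 4.58%), and both E arrays lay above the 6 others in 10 genes (background 7.57%). In 8 genes both held (background 1.22%): the glucose transporter Slc2a1, Hk2, Pfkl, Tpi1, Pgam1, Ldha, the lactate exporter Slc16a3 and Pdk1. The number was 8 with equalized array medians, 6 after a repeated quantile normalization and 6 with the mean of each gene's probe sets. In 22 genes both arrays of some experiment lay above or below all others (background 47%). For BC above there were 2, Eno2 and Pdk2 (background 10.2%), and for E below 1, Eno2 (background 4.58%). For I above there was 1, Pfkfb3 (background 4.19%), and for I below 4, Hk3, Pfkfb4, Pdp1 and Pgd (background 8.53%). D2 was above in 3 (background 7.81%) and below in 0 (background 9.33%). By experiment means, BC was highest in 5 genes (31.7%), D2 in 6 (24.2%) and I in 3 (19.7%), while D2 was lowest in 4 (32.2%), E in 3 (19.4%) and I in 8 (28.8%), each with its background in brackets. Against the D2 and I arrays alone, BC was below in 11 genes (background 6.1%) and E above in 14 (background 12.1%).

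**Figure D3:**
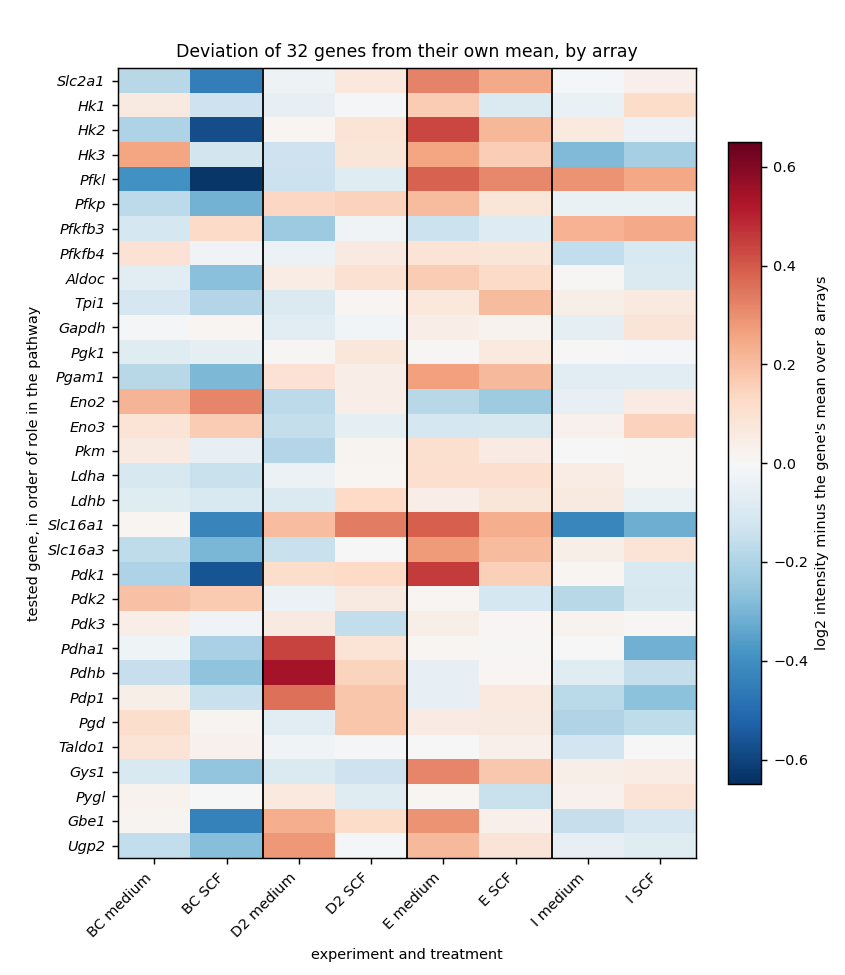
Log2 intensity of each tested gene minus its own mean over 8 arrays, with genes in rows, arrays in columns and black lines between experiments; red is above and blue below the mean. The BC columns are blue and the E columns red for Slc2a1, Hk2, Pfkl, Pgam1, Slc16a3 and Pdk1, while Eno2 has the opposite colours and Pdha1, Pdhb and Pdp1 are reddest in D2.

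Markers of other cells were read beside these differences. All 12 dendritic cell markers found were above the filter, Itgax (CD11c), H2-Ab1 and Ccr7 among them, while Cd74 had no probe set of its own. The summed linear intensity of these 12 was 8375 to 8591 in BC, 8358 to 8593 in D2, 8701 to 8770 in E and 8462 to 8640 in I. This linear sum was thus highest in E too, but the mean log2 level of these 12 markers was not. E, at 8.52, lay below I (8.58) and BC (8.57), with D2 also at 8.52. By experiment means Itgax, H2-Ab1 and Csf2ra were highest in E, while Zbtb46, Flt3, Cd86 and Dpp4 were lowest there. Of 10 macrophage markers 9 were found and 7 were above the filter. Their summed linear intensity was 1330 to 1594 in BC, 1454 to 1556 in D2, 1883 to 1899 in E and 1315 to 1377 in I. Thus macrophage markers were highest in E, where Cd14 averaged 6.01 against 4.78 in BC, 5.29 in D2 and 4.78 in I (adjusted p between experiments 0.0124), and Fcgr1 and C1qb also differed between experiments. The part of these markers in the glycolytic differences was not tested. Of 11 mast cell and basophil markers only Cpa3 was above the filter, and it differed between experiments too (adjusted p = 0.0333), with means of 5.02, 4.01, 4.34 and 4.82 for BC, D2, E and I, so that BC was highest. Its part was not tested either. Above the filter were, of 11 neutrophil markers Ly6g and Cxcr2, of 6 B cell markers found Pax5, and none of the 7 T and NK cell or 2 erythroid markers found. Cycling cell markers had 8 of 9 above the filter, with a summed intensity of 316 to 344 in BC, 330 to 360 in D2, 313 to 318 in E and 309 to 331 in I.

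Glucose enters through the transporters Slc2a1 and Slc2a3 and is trapped by hexokinases. Slc2a1, which encodes GLUT1, read 9.61, 9.75, 10.11 and 9.78 in medium and 9.34, 9.85, 10.03 and 9.82 with SCF. Both BC arrays were the lowest and both E arrays the highest, and medium and SCF overlapped. E exceeded BC 1.51-fold, a log2 difference of 0.60 (SE 0.10), and the test between experiments missed the threshold (adjusted p = 0.0663). The SCF difference of Slc2a1 was −0.05 (SE 0.07) and turned to 0.02 without BC. Its other probe set, at a mean of 4.45, had a spread of 0.12 against 0.24 for the one used. Slc2a3, the GLUT3 gene, was dim at 3.62 to 4.19 and was lower with SCF in 4 of 4 experiments, but was not tested.

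The hexokinase genes differed in their spread as read by these probe sets, of which that of Hk1 was dim (mean 4.97). Hk2, the hypoxia-inducible form, read 6.80, 7.02, 7.44 and 7.07 in medium and 6.43, 7.09, 7.22 and 6.97 with SCF. Hk1, the constitutive form, read 5.02, 4.91, 5.13 and 4.92 in medium and 4.83, 4.95, 4.87 and 5.08 with SCF. Hk3, the form of myeloid cells, read 7.48, 7.09, 7.48 and 6.93 in medium and 7.10, 7.30, 7.38 and 7.01 with SCF. Hk2 was lowest in BC and highest in E, Hk3 was lowest in I, and Hk1 had no experiment apart. The spread between experiments was 0.29 for Hk2 (adjusted p = 0.0521), 0.19 for Hk3 (0.207) and 0.04 for Hk1 (0.895). With SCF, Hk2 differed by −0.15 (SE 0.08, 95% interval −0.33 to 0.03, adjusted p = 0.945), which was −0.08 without BC. Hk3 differed by −0.05 (SE 0.09) and Hk1 by −0.06 (SE 0.08), and these turned to 0.06 without BC and 0.0035 without E.

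Phosphofructokinase commits sugar to glycolysis, and the bifunctional enzymes of the Pfkfb family make its activator. Pfkl, the liver-type subunit, had the largest spread of the set. It read 7.57, 7.82, 8.35 and 8.25 in medium and 7.33, 7.88, 8.27 and 8.21 with SCF. The arrays of BC were lowest, those of D2 next, and E and I were above both, without overlap at either step, while medium and SCF overlapped. E exceeded BC 1.81-fold, a log2 difference of 0.86 (SE 0.09, adjusted p between experiments 0.0149), and the p was 0.0755 without BC and 0.0602 without E. Pfkp, the platelet-type subunit, read 8.98, 9.28, 9.35 and 9.11 in medium and 8.84, 9.30, 9.23 and 9.10 with SCF. Pfkp was also lowest in BC, but its highest experiment was D2 (spread 0.18, adjusted p = 0.0717). Pfkm, the muscle-type subunit, was just below the filter at 3.92 to 4.20, with both BC arrays at its top.

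Pfkfb3 had the highest SCF minus medium difference of the 32 tested genes. This gene of the enzyme that makes fructose 2,6-bisphosphate read 7.97, 7.85, 7.95 and 8.31 in medium and 8.21, 8.06, 8.001 and 8.34 with SCF. It was higher with SCF in 4 of 4 experiments (2 genes, or 6.25%, were, against a background of 6.43%), by 0.24, 0.22, 0.05 and 0.02. Its log2 difference was 0.13 (SE 0.06, 95% interval −0.01 to 0.27, adjusted p = 0.945). Both arrays of I lay above all others, so that Pfkfb3 did not follow the order of Pfkl. Pfkfb4 varied little, from 5.21 to 5.46, and Fbp1, which reverses the step in gluconeogenic cells, was dim at 3.06 to 3.41.

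**Figure D4:**
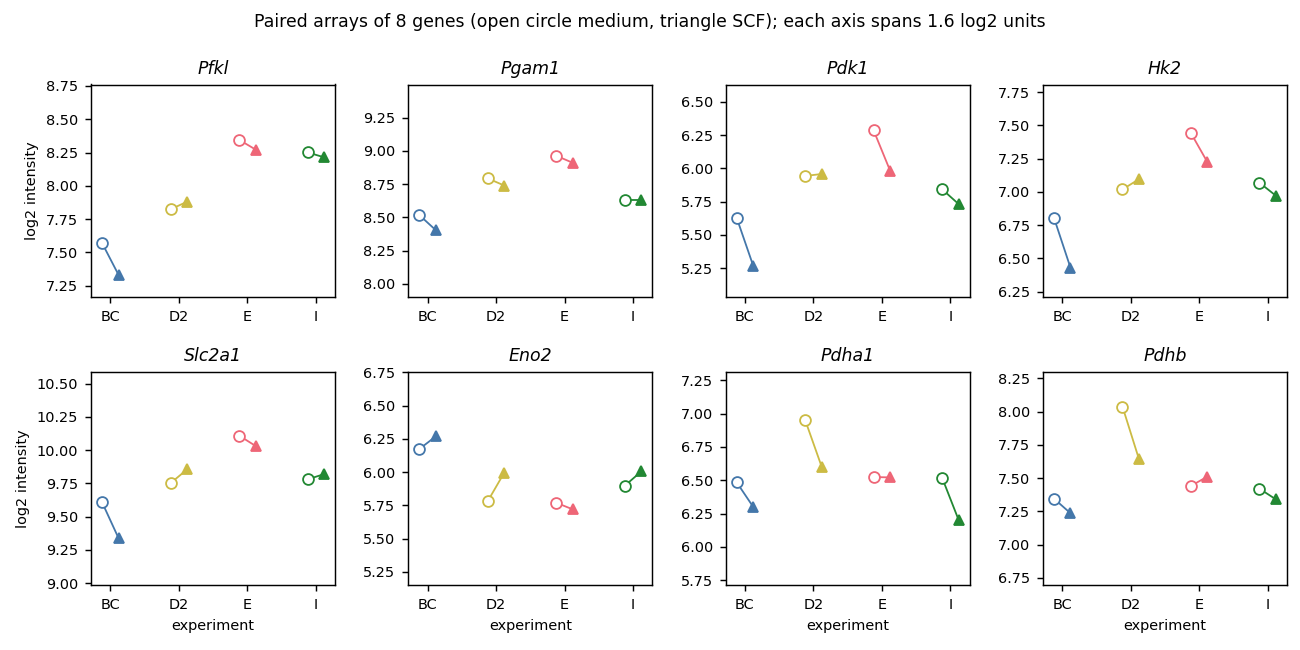
Log2 intensity by experiment for Pfkl, Pgam1, Pdk1, Hk2, Slc2a1, Eno2, Pdha1 and Pdhb, with an open circle for medium and a triangle for SCF joined by a line. Each panel spans the same 1.6 log2 units: BC is lowest and E highest for Pfkl, Pgam1, Pdk1, Hk2 and Slc2a1, Eno2 runs the other way, and the D2 medium array is the top point for Pdha1 and Pdhb.

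Lower glycolysis turns triose phosphates into pyruvate, through glyceraldehyde phosphate dehydrogenase (Gapdh), phosphoglycerate kinase (Pgk1) and pyruvate kinase (Pkm). Gapdh stayed between 10.73 and 10.88, Pgk1 between 10.18 and 10.33 and Pkm between 10.02 and 10.31 on all 8 arrays. Their spreads between experiments were 0.03, 0.05 and 0.07. None had a fitted SCF difference above 0.05 in size. Tpi1, the triose phosphate isomerase gene, ranged from 9.83 to 10.23, and Aldoc, a fructose bisphosphate aldolase gene, from 7.55 to 7.99, both highest in E and lowest in BC.

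Pgam1, the phosphoglycerate mutase gene, read 8.52, 8.79, 8.96 and 8.63 in medium and 8.40, 8.74, 8.91 and 8.63 with SCF. BC was below and E above all other arrays, and treatments overlapped. E exceeded BC 1.39-fold, a log2 difference of 0.48 (SE 0.07, adjusted p = 0.0452). This call rests on the probe set chosen, because the other Pgam1 probe set, at a mean of 8.32, had a spread of 0.07 against 0.20, and the adjusted p was 0.202 for their mean. It ranged from 0.0694 to 0.169 when 1 experiment was left out, lowest without I and highest without E, and was 0.0716 with no filter. The SCF difference of Pgam1 was −0.05 (SE 0.05), below 0 in 4 of 4 experiments.

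Eno2 and Eno3, the enolase genes of the set with a probe set of their own, ran against this order, while Eno1 could not be read. Eno2, the neuron-type enolase that hypoxia induces in other cells, read 6.17, 5.78, 5.77 and 5.90 in medium and 6.27, 6.00, 5.72 and 6.00 with SCF. Eno3, the muscle-type enolase, read 9.56, 9.31, 9.35 and 9.50 in medium and 9.64, 9.41, 9.36 and 9.62 with SCF. For Eno2 both BC arrays were the highest and both E arrays the lowest. For Eno3 BC and I were above D2 and E, and no single experiment stood apart. Neither passed between experiments (adjusted p 0.0702 for Eno2 and 0.135 for Eno3). With SCF, Eno2 differed by 0.09 (SE 0.06) and Eno3 by 0.08 (SE 0.05), and Eno3 was higher in 4 of 4 experiments. The difference of Eno2 was 0.05 without D2 and 0.14 without E. By experiment means, BC highest with E lowest was found for these 2 of 32 genes, or 6.25%, which is no more than the background of 8.57%. BC lowest with E highest was found for 12, or 37.5% (background 8.26%).

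Lactate dehydrogenase interconverts pyruvate and lactate. Ldha, the subunit favouring lactate, read 6.65, 6.72, 6.87 and 6.81 in medium and 6.61, 6.77, 6.87 and 6.77 with SCF. Ldhb, the other subunit, read 5.04, 5.03, 5.16 and 5.18 in medium and 5.02, 5.25, 5.20 and 5.08 with SCF. Ldha kept the order of BC lowest and E highest within a narrow span of 1.18-fold (adjusted p = 0.227), whereas Ldhb had no experiment apart (adjusted p = 0.644). The SCF difference was −0.01 (SE 0.05) for Ldha, which turned to 0.0038 without BC, and 0.03 (SE 0.07) for Ldhb, which turned to −0.03 without D2.

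As read by their probe sets, the lactate transporters varied more than the dehydrogenase. Slc16a1, the MCT1 gene, read 6.43, 6.62, 6.81 and 5.99 in medium and 5.99, 6.75, 6.66 and 6.10 with SCF. Slc16a3, the hypoxia-inducible exporter MCT4, read 7.89, 7.91, 8.34 and 8.10 in medium and 7.76, 8.06, 8.26 and 8.14 with SCF. Slc16a1 was high in D2 and E and low in I and in the BC array with SCF, and Slc16a3 kept BC lowest and E highest. Their spreads were 0.34 (adjusted p = 0.0659) and 0.20 (0.0759). The SCF difference was −0.09 (SE 0.10) for Slc16a1, resting on BC (−0.44) and turning to 0.03 without it, and −0.0046 (SE 0.06) for Slc16a3, turning to 0.04 without BC and 0.02 without E.

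Pyruvate dehydrogenase kinases phosphorylate and switch off the complex that feeds pyruvate to mitochondria. Pdk1, the HIF-induced kinase, read 5.63, 5.94, 6.28 and 5.84 in medium and 5.27, 5.96, 5.98 and 5.73 with SCF. It was lowest in BC and highest in E, with E exceeding BC 1.61-fold, a log2 difference of 0.68 (SE 0.10, adjusted p = 0.0458). It ranged from 0.0509 to 0.197 when 1 experiment was left out, lowest without D2 and highest without BC. It was 0.0712 with no filter and 0.105 for the mean with a dim second probe set (mean 2.72). With SCF Pdk1 differed by −0.19 (SE 0.07, 95% interval −0.36 to −0.02, unadjusted p = 0.0341, adjusted p = 0.945), lower in 3 of 4 experiments and −0.13 without BC.

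The other kinases did not share this pattern. Pdk2 read 5.92, 5.69, 5.74 and 5.55 in medium and 5.90, 5.79, 5.61 and 5.62 with SCF. Pdk3 read 7.84, 7.85, 7.83 and 7.82 in medium and 7.77, 7.64, 7.81 and 7.81 with SCF. Pdk4 read 3.64, 3.73, 3.76 and 3.90 in medium and 3.83, 3.61, 3.83 and 3.79 with SCF, below the filter. Pdk2 was highest in BC (spread 0.14, adjusted p = 0.153), while Pdk3 hardly varied between experiments (0.03, 0.861). For Pdk3 all 4 SCF arrays lay below all 4 medium arrays, the only gene of the set whose treatments did not overlap (background 0.971%). Its difference was −0.08 (SE 0.06, adjusted p = 0.945) and rested on D2, at −0.03 without it.

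Pdha1, Pdhb and Pdp1 had their highest mean in D2. Pdha1, the catalytic E1 alpha subunit, read 6.48, 6.95, 6.52 and 6.52 in medium and 6.30, 6.60, 6.52 and 6.20 with SCF. Pdhb, the E1 beta subunit, read 7.35, 8.04, 7.44 and 7.42 in medium and 7.24, 7.64, 7.51 and 7.34 with SCF. Pdp1, the phosphatase that switches the complex on, read 6.15, 6.47, 6.06 and 5.94 in medium and 5.97, 6.29, 6.17 and 5.84 with SCF. Both D2 arrays lay above the 6 others in each of these 3 genes and in no other tested gene of the set. That is 9.38% of the 32 tested genes, near the background of 7.81%. None passed between experiments (adjusted p 0.111, 0.0853 and 0.0846). Other genes of the complex, from the further pathway genes, did not all share this order. The means of Dld (E3) and Pdhx were highest in D2. That of Dlat (E2) was nearly level, at 6.995 in E and 6.987 in D2 (SE of such a difference 0.09). Those of Pdp2 and Pdpr, a phosphatase and a phosphatase regulator, were lowest in D2. None of these 5 passed either. Pdha1 had the smallest p of the set for SCF, with a difference of −0.21 (SE 0.07, 95% interval −0.37 to −0.05, unadjusted p = 0.0170, adjusted p = 0.945), lower in 4 of 4 experiments and −0.17 without D2. Pdhb was at −0.13 (SE 0.08), or −0.04 without D2 and −0.19 without E, and Pdp1 at −0.08 (SE 0.07), or −0.05 without BC or without D2 and −0.15 without E.

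In the pentose phosphate path, which makes NADPH and ribose, Pgd and Taldo1 were measured. Pgd, the 6-phosphogluconate dehydrogenase gene, read 10.04, 9.86, 9.97 and 9.72 in medium and 9.94, 10.10, 9.98 and 9.76 with SCF. Taldo1, the transaldolase gene, read 7.54, 7.43, 7.46 and 7.33 in medium and 7.48, 7.45, 7.49 and 7.45 with SCF. Both arrays of I were the lowest for Pgd, and Taldo1 had no experiment apart. Neither passed between experiments (adjusted p 0.262 and 0.646). Their SCF differences were 0.05 (SE 0.07), turning to −0.02 without D2, and 0.03 (SE 0.05), turning to −0.0053 without I.

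All 4 glycogen genes of the set had fitted SCF differences below 0, and none passed the test. Glycogen genes among the further pathway genes did not all share this sign. Gyg (0.05, higher with SCF in 4 of 4 experiments), Gaa (0.08), Phkg2 (0.05), Stbd1 (0.0019) and Phka2 (0.0007) lay above 0. Epm2a (−0.07), Phkb (−0.02), Phka1 (−0.02) and Pygb (−0.02) lay below. Gbe1, the branching enzyme gene, read 6.49, 6.71, 6.77 and 6.33 in medium and 6.04, 6.59, 6.51 and 6.37 with SCF. Ugp2, which makes UDP-glucose, the substrate of glycogen synthase, read 7.09, 7.53, 7.46 and 7.19 in medium and 6.97, 7.24, 7.33 and 7.17 with SCF. Gys1, the glycogen synthase gene, read 7.37, 7.38, 7.79 and 7.51 in medium and 7.21, 7.33, 7.64 and 7.52 with SCF. With Pfkfb3 and Eno3 higher and Pgam1, Pdk3, Pdha1 and Ugp2 lower, 6 tested genes of the set had 1 sign in all experiments (background 12.9%). Ugp2 was lower with SCF in 4 of 4 experiments (4 of 32 genes, or 12.5%, were, against a background of 6.44%), and both E arrays of Gys1 lay above all others. The differences were −0.20 (SE 0.08) for Gbe1, −0.14 (SE 0.06) for Ugp2, −0.08 (SE 0.05) for Gys1 and −0.07 (SE 0.06) for the phosphorylase gene Pygl, with adjusted p of 0.945 for each. Gbe1 rested on BC, where it differed by −0.45, and was −0.11 without BC, while Ugp2 was −0.09 without D2. Between experiments Gys1 had an adjusted p of 0.0662, Ugp2 0.0930 and Gbe1 0.145.

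The rest of the pathway was read through 64 further genes, of which 57 had a probe set of their own and 39 were tested. None passed for SCF or between experiments in limma at an adjusted p of 0.05. At an unadjusted p under 0.05 in limma, 3 were lower with SCF (Shpk, Emb and Pgm2l1) and 1 was higher (Pgls). Shpk, the sedoheptulokinase gene, differed by −0.22 (SE 0.06), Emb, a chaperone of lactate transporters, by −0.26 (SE 0.08), and Pgm2l1, a glucose bisphosphate synthase gene, by −0.21 (SE 0.08). Pgls, the pentose phosphate lactonase gene, differed by 0.16 (SE 0.07). Their median difference was −0.01, with 22 below 0 and 17 above. Their median spread between experiments was 0.10, against 0.17 in the set and 0.09 over all probe sets tested. The smallest p between experiments belonged to Phka1, Phka2 and Dld (adjusted p 0.0732, 0.0742 and 0.0853).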

How the data were processed

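Total RNA of 8 cultures was hybridised to 1 Affymetrix array each. The deposited values are intensities on a linear scale, 1 for each probe set and array, which the authors normalized with RMA per the submitters' processing notes. Its software and version were not stated. Log2 was taken with no further normalization. Symbols came from the platform annotation given: 23521 of 41345 probe sets had 1 symbol, 1814 several and 16010 none. Signal over background is unknown, so the filter was the median of the mean log2 intensities of probe sets with a symbol.

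SCF was compared with medium in limma 3.58.1 (R 4.3.3) by a two-sided lmFit and eBayes test in which experiment was a fixed block, and experiments by the moderated F test of the same fit. Both were adjusted by Benjamini-Hochberg over 12668 probe sets. The design text describes each experiment as purified cells then cultured with or without SCF, and this gives the pairing. With group means removed, both arrays of an experiment correlated at 0.36 to 0.46. The fit was tested on simulated data. Alternatives changed the filter, scaling, variance model, probe set rule and block, or left out 1 experiment.

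The genes, lists and tests were chosen with earlier results of these data known. The set was divided by role. Values on every array were printed for the 2 genes of each role with the smallest p in each test, for genes passing, and for isoforms. Of the further pathway genes the 3 with the smallest p in each test were named. In addition, after values were seen, Pgls, genes of the pyruvate dehydrogenase complex and of glycogen and the markers Mertk and Bub1 were named. Promoters came from RefSeq tables, cut to 250 bases.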

Additional observations from a re-analysis of the deposited data

Results flagged for a closer look

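Among 72 groups of 4 arrays examined (36 genes, medium and SCF), 3 held an array far from the other 3, or 4.17%, where chance flags about 1 in 20. The medium array of BC read 10.18 for Pgk1, below the next lowest value of 10.26. The medium array of D2 read 6.95 for Pdha1, where the next highest was 6.52, and 8.04 for Pdhb, where the next highest was 7.44. Both pyruvate dehydrogenase subunits thus stood out on the same array.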

How the results depend on the processing

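No alternative gave a gene past the threshold for SCF, including the fit with no replicate block (0 genes) and that with experiment as a random replicate block (0). The median SCF difference of the set ranged from −0.08 without I to 0.01 without BC. Between experiments, 3 of the 32 tested genes passed, or 9.38%, against 3.35% of all probe sets tested. The count was 1 with no intensity filter (background 0.766%), 15 of 25 with the stricter filter (22.0%) and 5 with array medians equalized (3.84%). It was 4 after a repeated quantile normalization (3.17%), 16 with a variance trend (12.1%) and 1 with the mean of each gene's probe sets (3.33%). When an experiment was left out it was 0 to 1 (0.300% to 1.40%). Leaving out one experiment also leaves fewer arrays. Of 377 SCF differences recomputed, 356 kept their sign. The 21 that turned belonged to 12 genes, and the cause was not tested. With array medians equalized, Pfkfb4 was −0.0118, Pkm −0.0066 and Pdk2 −0.0141, and after a repeated quantile normalization Pfkfb4 was −0.0070 and Pdk2 −0.0019. With 1 experiment left out, the differences ranged from −0.102 to 0.0215 for Slc2a1, −0.137 to 0.0035 for Hk1, −0.134 to 0.0625 for Hk3, −0.0223 to 0.0491 for Pfkfb4, −0.0522 to 0.0540 for Pkm, −0.0277 to 0.0052 for Ldha and −0.0301 to 0.0788 for Ldhb. They ranged from −0.161 to 0.0310 for Slc16a1, −0.0535 to 0.0386 for Slc16a3, −0.0252 to 0.0491 for Pdk2, −0.0185 to 0.0970 for Pgd and −0.0053 to 0.0573 for Taldo1. Leaving out BC moved by over 1.5 times or turned 20 of 32 differences, D2 21, E 12 and I 12. Without a measure of background, dim genes such as Slc2a3, Pfkm, Fbp1 and Pdk4 have no detection limit.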
